A study of Mus musculus with 12 samples.

Results

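The TGF-β pathway was followed through 10 genes, *Tgfb1*, *Furin*, *Tgfbr1*, *Tgfbr2*, *Smad2*, *Smad3*, *Smad4*, *Smad7*, *Ski* and *Skil*, among the 41457 genes listed for each library. They were taken by gene name, with earlier results of these data known, and all 10 were expressed. The libraries were made from RFP+CD4+ T cells (Treg) sorted from mouse spleen. In CD18Foxp3 mice, exon 3 of *Itgb2*, the gene of the β2-integrin chain CD18, is flanked by loxP sites (CD18 fl/fl) and removed by a Cre recombinase made from the *Foxp3* locus. The CD18wt controls were CD18 wt/wt Foxp3Cre littermates. Both genotypes thus carried the Cre allele, and the RFP reporter used for the sort marks cells in which Cre has acted. Sorted cells were kept overnight in IL-2 at 5 U/ml, and for the stimulated groups agonistic antibodies to CD3 (1 µg/ml) and CD28 (2 µg/ml) were added. Each of the 4 groups (CD18wt and CD18Foxp3, unstimulated and stimulated) had 3 libraries labelled as biological replicates. The mice were matched for age and sex, and their ages are not given in the sources used here.

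TGF-β1 is secreted as an inactive dimer that the protease furin has cut from its propeptide and that stays wrapped in this propeptide until an integrin or another activator releases it. The free ligand binds the type II receptor TGFBR2, which phosphorylates the type I receptor TGFBR1. This kinase in turn phosphorylates SMAD2 and SMAD3, which enter the nucleus together with SMAD4. SMAD7 blocks the receptor complex, and SKI and SKIL (SnoN) hold SMAD complexes at DNA in a repressed state. In Treg the pathway takes part both in receiving TGF-β, which maintains *Foxp3* expression, and in presenting latent TGF-β on the surface through GARP, the product of *Lrrc32*.

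*Tgfb1* and *Furin*, the ligand and its protease, lie on opposite strands of chromosome 7, and *Tgfbr2* lies on chromosome 9. The 250 bases before the transcription start site of these 3 genes, the ligand, its protease and the ligand-binding receptor, each called on stimulation in both genotypes below, are shown 5′ to 3′ on the gene's own strand as the RefSeq table for build GRCm38.p6 gives them. Capitals mark a match to 1 of 5 motifs that were searched on both strands: the SMAD palindrome GTCTAGAC, the CAGA box CAGACA, the AP-1 site TGANTCA, the CRE TGACGTCA and the EGR site GCGTGGGCG. No 2 of these matches overlapped. The search took in the whole promoter entry, including bases after the start site that are not shown. The shares of all promoters given below were counted over such whole entries. The lines are *Tgfb1* at chr7:25686752-25687001 (plus strand), *Furin* at the first of its 2 listed start sites, chr7:80405437-80405686 (minus strand), and *Tgfbr2* at chr9:116175364-116175613 (minus strand).
Tgfb1: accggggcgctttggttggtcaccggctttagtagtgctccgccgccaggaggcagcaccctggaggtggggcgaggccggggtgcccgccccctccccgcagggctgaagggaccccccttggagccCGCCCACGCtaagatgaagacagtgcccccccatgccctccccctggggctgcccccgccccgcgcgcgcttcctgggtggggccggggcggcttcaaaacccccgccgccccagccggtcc
Furin: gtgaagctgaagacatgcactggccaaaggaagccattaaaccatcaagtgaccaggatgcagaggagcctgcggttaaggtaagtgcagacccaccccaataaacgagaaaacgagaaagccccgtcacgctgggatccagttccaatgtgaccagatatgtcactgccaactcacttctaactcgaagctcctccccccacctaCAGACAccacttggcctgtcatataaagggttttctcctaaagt
Tgfbr2: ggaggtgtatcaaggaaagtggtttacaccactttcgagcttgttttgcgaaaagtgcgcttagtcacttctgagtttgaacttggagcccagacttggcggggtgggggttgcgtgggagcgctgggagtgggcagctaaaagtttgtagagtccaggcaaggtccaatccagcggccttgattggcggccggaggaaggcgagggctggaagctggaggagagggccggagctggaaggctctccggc
The capitals in the *Tgfb1* line are the EGR site read from the other strand, 122 bases before the start. EGR factors are induced by T cell receptor signals, and this letter pattern was present in 0.612% of the 32851 mouse promoters searched in the same way. The capitals in the *Furin* line are a CAGA box, the short element that SMAD3 and SMAD4 bind, 44 bases before the start. A second *Furin* start site and the second of 2 *Tgfbr1* start sites each held 1 CAGA box as well, 190 and 203 bases before the start. The CAGA box was present in 21% of all promoters. The *Tgfbr2*, *Smad3* and *Ski* entries held none of the 5 letter patterns. A match describes letters in the promoter entry and says nothing of binding.

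The libraries held between 10665174 and 19005482 reads in exons, the lowest total being CD18wt unstimulated replicate 3. Sorted identity was checked on 7 T cell and Treg markers, which were detected in all 12 libraries (*Foxp3* at 73.4 to 207.5 TPM, an abundance scaled to transcript length and library size). Several defining markers of other cells were at or near 0. *Ncr1* was at 0 in all 12 libraries, whereas the NK gene *Klrb1c* was at 0 in 5 and reached 5.32 TPM. The platelet genes *Pf4*, *Ppbp* and *Gp9* were at 0 in 11 libraries each, and *Itga2b* in 3, with at most 0.231 TPM. Platelets carry much TGF-β1, and a platelet share in the *Tgfb1* values was not tested. *Cd8b1* (12.4 to 30.4 TPM) and *Cd79b* (8.17 to 29.2) were detected in all 12, *Lyz2* reached 15.6 and *Hbb-bs* 24.9 TPM. Summed levels of 5 B cell markers, nearly all *Cd79b*, were 27.4 to 30.8 TPM unstimulated against 10.3 to 19.9 stimulated in CD18wt and 22.6 to 30.4 against 8.79 to 11.9 in CD18Foxp3. Those of 4 CD8 or NK markers, mostly *Cd8b1*, were 25.4 to 35.7 against 12.6 to 18.2 TPM in CD18wt and 25.3 to 33.0 against 16.8 to 25.8 in CD18Foxp3, and those of 5 myeloid markers 4.66 to 15.8 against 0.163 to 1.83 and 1.58 to 7.201 against 0.913 to 1.73. The sum of 4 erythroid markers was 1.83 to 4.21 against 0.725 to 2.56 TPM in CD18wt and 1.68 to 30.9 against 0.0813 to 0.263 in CD18Foxp3. The sum of 4 plasma cell markers, nearly all *Xbp1*, was higher after stimulation, at 58.7 to 68.3 against 127.4 to 164.6 TPM in CD18wt and 66.6 to 72.3 against 153.3 to 165.4 in CD18Foxp3. The sum of 4 platelet markers stayed at or below 1.65 TPM. The part of these shifts in the results on stimulation was not tested. *Itgb2* itself was at 386.9 to 465.2 TPM in CD18wt unstimulated and 229.2 to 257.2 in CD18Foxp3 unstimulated cells, a log2 fold change of -0.86 ± 0.09 (SE, edgeR adjusted p = 0.00407). In stimulated cells it was at 328.9 to 331.2 against 130.9 to 201.8 TPM (-0.94 ± 0.17, adjusted p = 0.216). The unstimulated call held without CD18wt unstimulated replicate 3 and was lost without any other 1 of the 6 libraries (adjusted p from 0.0163 to 0.046). Reads from the exons outside the deleted one are still counted, so this is a limited check of the deletion.

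At rest, the mean levels of the pathway genes ran from 16.9 to 122 TPM, a scale per transcript length on which genes can be set side by side. In CD18wt unstimulated cells the highest levels were those of the corepressor *Ski* (122 ± 6.10 TPM, mean ± SD, n = 3) and the type II receptor *Tgfbr2* (118 ± 12.4), followed by *Tgfb1* at 87.1 ± 9.21. *Smad4* (65.6 ± 3.65) and *Smad7* (65.2 ± 33.1) came next, then *Smad3* (41.2 ± 4.20), *Smad2* (37.9 ± 6.85) and *Skil* (36.3 ± 4.36). *Tgfbr1* (25.8 ± 1.49) and *Furin* (16.9 ± 2.66) were lowest. Within the pairs *Ski* and *Tgfbr2*, and *Smad4* and *Smad7*, and within the trio *Smad3*, *Smad2* and *Skil*, neighbours lay closer than their SDs. *Smad7*, spread over 31.3 to 97.4 TPM, also lay within its SD of *Tgfb1* and of that trio, so its place is not settled. In CD18wt stimulated cells the order had changed. *Tgfb1* led at 198 ± 42.4 TPM, *Ski* (109.85 ± 21.7) and then *Furin* (70.5 ± 16.5) came next, and *Smad3* (38.99 ± 4.61) and *Smad7* (37.6 ± 10.96) were lowest and closer than their SDs. Levels between *Furin* and *Tgfbr1* (51.8 ± 2.77), which also take in *Skil* (68.1 ± 11.95), *Tgfbr2* (62.3 ± 11.96), *Smad4* (60.2 ± 7.48) and *Smad2* (54.2 ± 0.957), were not separated from their neighbours by more than their SDs.

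**Figure D1:**
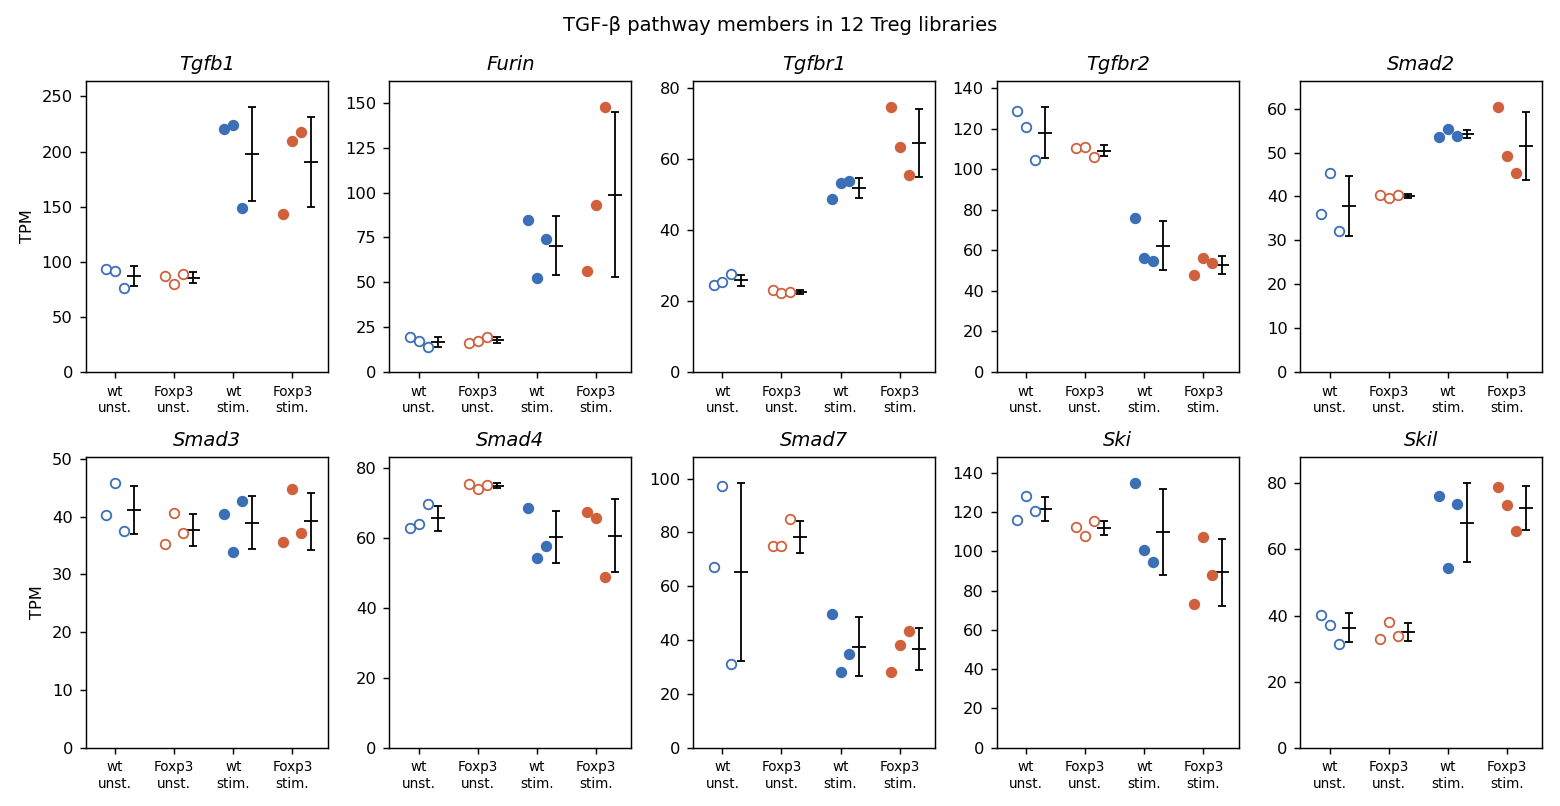
Level of each of the 10 genes in TPM (vertical axes, starting at 0) in 12 Treg libraries. Open circles are unstimulated and filled circles stimulated libraries, blue is CD18wt and orange CD18Foxp3, and black bars are the mean ± SD of 3 libraries. *Tgfb1*, *Furin*, *Tgfbr1*, *Skil* and, by less, *Smad2* sit higher in the stimulated than in the unstimulated libraries of both genotypes, and *Tgfbr2* sits lower. In *Smad7* 1 CD18wt unstimulated library is low at 31.3 TPM.

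The first comparison asked what anti-CD3 and anti-CD28 did to the pathway in CD18wt Treg. *Tgfb1*, *Furin* and *Tgfbr1* rose and *Tgfbr2* fell, and the other 6 genes did not pass the threshold of a fold change of at least 1.5 with an adjusted p of at most 0.01. These 4 of 10 genes stood against a background of 33.6% of all 11930 genes tested (18.7% higher and 14.9% lower), so that the share of the pathway was near that of the transcriptome. The median log2 fold change was -0.18 over the 10 genes and 0.02 over all genes tested. In CD18Foxp3 Treg 8 of the 10 genes passed, 4 in each direction, where 38.6% of 12019 genes did (20.9% higher and 17.6% lower). *Skil* joined those that rose, and *Smad4*, *Smad7* and *Ski* those that fell. The median over the 10 genes was -0.16. Fold changes are on the scale of TMM-normalized exon reads, on which the median gene moved by 0.02 in CD18wt and 0.02 in CD18Foxp3. In TPM the median gene rose on stimulation by 0.36 and 0.31 (log2), so a TPM ratio is larger than the fold change given for the same gene. Of 11642 genes with a mean of at least 1 TPM, 47.9% had all stimulated CD18wt libraries above all unstimulated ones and 13.9% had all below, and in CD18Foxp3 these shares were 47.8% and 18.9%. In these bulk libraries, fewer cells that express a gene and less of its RNA per cell cannot be told apart.

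**Figure D2:**
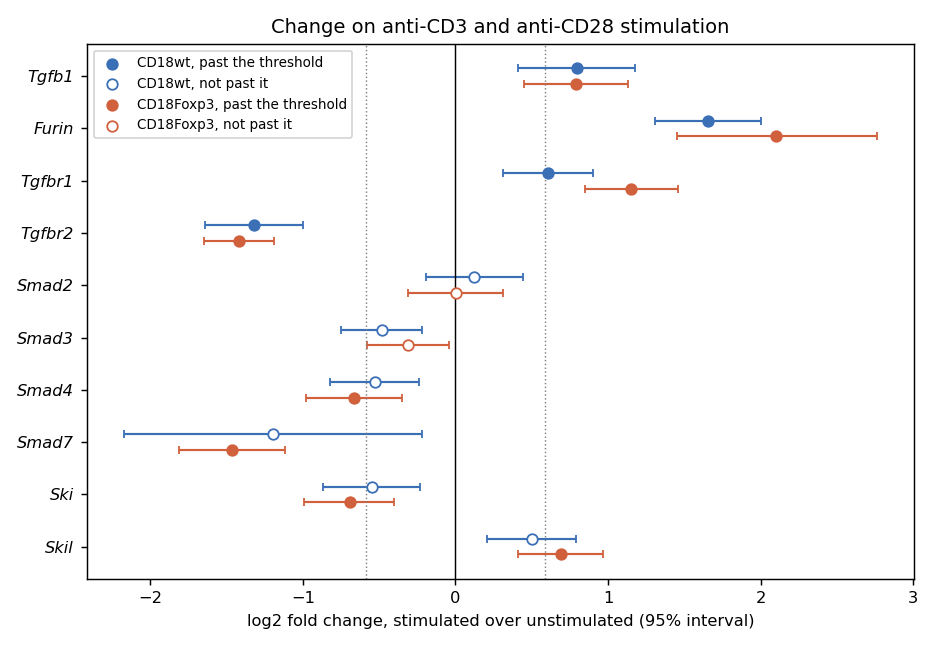
Log2 fold change of stimulated over unstimulated cells from edgeR (horizontal axis) with its 95% interval for each gene (rows), in CD18wt (blue) and CD18Foxp3 (orange), 3 libraries per group. Filled points passed the threshold and dotted lines mark a fold change of 1.5. *Furin* has the highest points at 1.65 and 2.10, and *Tgfbr2* and *Smad7* the lowest, from -1.19 to -1.46.

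*Tgfb1* encodes the ligand of the pathway. Its level was 93.3, 91.5 and 76.5 TPM in the 3 CD18wt unstimulated libraries and 220.4, 223.8 and 148.7 in the stimulated ones. In CD18Foxp3 it was 86.9, 79.9 and 89.3 TPM unstimulated and 143.3, 209.9 and 217.8 stimulated. Stimulated libraries did not overlap with unstimulated ones in either genotype, and 1 stimulated library of each genotype was lower than the other 2. The rise was 0.80 ± 0.18 on the log2 scale in CD18wt (adjusted p = 0.00256) and 0.79 ± 0.15 in CD18Foxp3 (adjusted p = 0.0017). The CD18wt call did not hold when CD18wt unstimulated replicate 2 or 3 or stimulated replicate 1 or 2 was left out (adjusted p from 0.0112 to 0.0163), and the CD18Foxp3 call did not hold without unstimulated replicate 2 (0.012).

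*Furin*, whose product cuts proTGF-β1 among many other precursors, showed the largest rise of the 10 genes. Its level was 19.3, 17.3 and 14.0 TPM in CD18wt unstimulated and 85.0, 52.5 and 73.9 in CD18wt stimulated libraries. The CD18Foxp3 libraries held 16.3, 17.6 and 19.7 TPM unstimulated and 56.2, 93.1 and 147.4 stimulated. All 6 stimulated libraries lay above all 6 unstimulated ones, and the stimulated CD18Foxp3 libraries were spread over 56.2 to 147.4 TPM. The log2 fold change was 1.65 ± 0.16 in CD18wt (adjusted p = 3.41e-06) and 2.10 ± 0.29 in CD18Foxp3 (adjusted p = 0.000259). An antisense gene, Gm44851, overlaps *Furin* and had at most 84 exon reads in a library. The library kit is not described as keeping strand, so reads of the 2 genes cannot be told apart.

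The receptors moved in opposite directions. *Tgfbr1*, the type I receptor kinase, was at 24.6, 25.4 and 27.5 TPM in CD18wt unstimulated and at 48.6, 53.1 and 53.7 in CD18wt stimulated libraries. In CD18Foxp3 it went from 23.1, 22.1 and 22.4 TPM to 74.4, 63.4 and 55.4. The rise was 0.61 ± 0.14 (log2) in CD18wt (adjusted p = 0.00239), a fold of 1.52 that lies close to the minimum of 1.5, and 1.15 ± 0.14 in CD18Foxp3 (adjusted p = 0.000102). In CD18wt the fold was under 1.5 with upper-quartile scaling (0.52) and with DESeq2 (0.58), and the call did not hold without CD18wt unstimulated replicate 1 or 2 or stimulated replicate 2 (0.50 to 0.57).

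*Tgfbr2*, the ligand-binding receptor, fell in both genotypes. It was at 128.7, 120.9 and 104.4 TPM in CD18wt unstimulated and 76.1, 56.2 and 54.7 in CD18wt stimulated libraries. The CD18Foxp3 libraries went from 110.3, 110.8 and 105.99 TPM to 47.7, 56.4 and 53.6. Every stimulated library lay below every unstimulated one. The log2 fold change was -1.32 ± 0.15 in CD18wt (adjusted p = 1.27e-05) and -1.42 ± 0.10 in CD18Foxp3 (adjusted p = 7.34e-06), and both calls held in every alternative fit.

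Set against each other within a library, *Tgfbr1* was at 0.221 ± 0.037 of the *Tgfbr2* level in TPM in CD18wt unstimulated cells (SD, n = 3) and at 0.856 ± 0.188 after stimulation. In CD18Foxp3 the ratio went from 0.207 ± 0.006 to 1.24 ± 0.28. Within each genotype the stimulated and unstimulated ratios did not overlap, with a 3.83-fold difference in CD18wt and a 5.90-fold difference in CD18Foxp3. The 2-sided exact permutation test gave p = 0.1 for each, which is the smallest value that 3 against 3 libraries allow. The stimulated ratios were 0.639, 0.946 and 0.982 in CD18wt and 1.56, 1.12 and 1.03 in CD18Foxp3, again without overlap (1.45-fold, exact permutation p = 0.1). These ratios were chosen after the values had been seen.

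**Figure D3:**
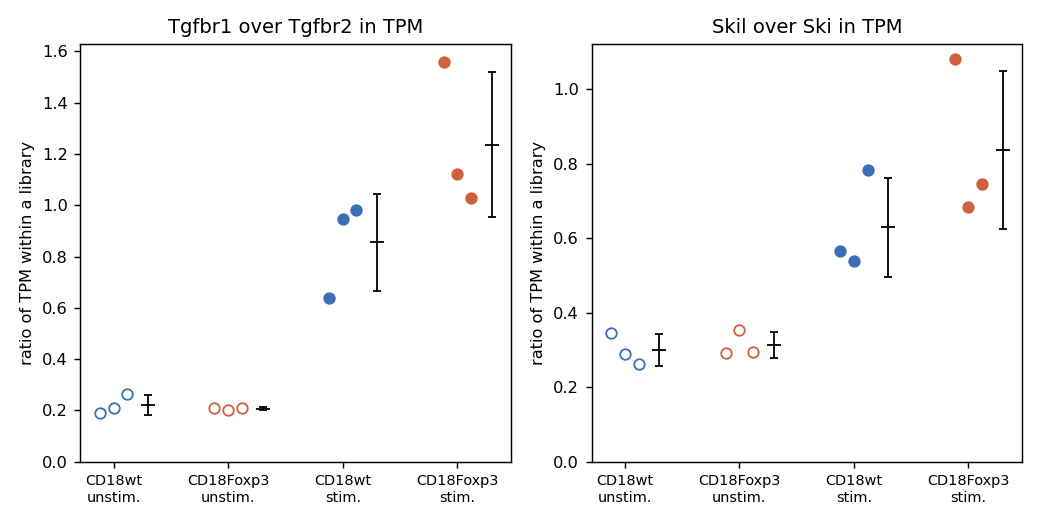
Ratio of TPM within each library for *Tgfbr1* over *Tgfbr2* (left) and *Skil* over *Ski* (right), vertical axes starting at 0. Open circles are unstimulated and filled circles stimulated libraries, blue CD18wt and orange CD18Foxp3, with the mean ± SD of 3 libraries in black. The receptor ratio lies between 0.191 and 0.263 in all 6 unstimulated libraries and between 0.639 and 1.56 in the 6 stimulated ones.

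*Smad2*, which carries the signal from the receptor, had a log2 fold change of 0.12 ± 0.15 in CD18wt (adjusted p = 0.508) and 0.00 ± 0.14 in CD18Foxp3 (0.985), with 95% intervals of -0.19 to 0.44 and -0.31 to 0.31. Its TPM values were 36.0, 45.4 and 32.1 in CD18wt unstimulated and 53.4, 55.3 and 53.9 in CD18wt stimulated libraries, and 40.4, 39.6 and 40.3 against 60.3, 49.1 and 45.3 in CD18Foxp3. The TPM groups did not overlap, and limma on log2(TPM + 1) gave 0.52 and 0.35 (adjusted p = 0.0135 and 0.0428), beside medians of 0.36 and 0.31 over all genes on that scale.

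*Smad3*, which binds DNA directly, had the smallest range of the 10 genes in TPM, with a highest-to-lowest ratio of 1.35 over the 12 libraries (33.8 to 45.8 TPM). On the scale of TMM-normalized reads its log2 fold change was -0.48 ± 0.12 in CD18wt (adjusted p = 0.00562) and -0.31 ± 0.12 in CD18Foxp3 (0.0494). The fold was under 1.5 in both, and in TPM the CD18Foxp3 value was 0.05, with the opposite sign.

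*Smad4*, the partner shared with the BMP branch of the family, was at 62.9, 64.1 and 69.7 TPM in CD18wt unstimulated and 68.6, 54.2 and 57.8 in CD18wt stimulated libraries. In CD18Foxp3 it was at 75.5, 74.1 and 75.1 TPM against 67.5, 65.7 and 48.7. The groups overlapped in CD18wt and did not in CD18Foxp3. The log2 fold change was -0.53 ± 0.14 in CD18wt (adjusted p = 0.00551, fold under 1.5) and -0.67 ± 0.14 in CD18Foxp3 (adjusted p = 0.00296). The CD18Foxp3 call did not hold in limma on log2(TPM + 1) (-0.32, adjusted p = 0.0794), nor without any 1 of its 3 unstimulated libraries (adjusted p from 0.0118 to 0.0156) or stimulated replicate 3 (-0.54).

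The inhibitors of the pathway split. *Smad7*, the receptor-level inhibitor that TGF-β itself induces, was at 67.0, 97.4 and 31.3 TPM in CD18wt unstimulated and 49.6, 28.2 and 34.8 in CD18wt stimulated libraries. In CD18Foxp3 it was at 74.9, 74.8 and 85.2 TPM against 28.04, 38.3 and 43.5. The CD18Foxp3 groups were apart, whereas in CD18wt the low value of unstimulated replicate 3, the library with the fewest reads, fell within the stimulated range. The fall was 1.46 ± 0.15 on the log2 scale in CD18Foxp3 (adjusted p = 5.16e-05). In CD18wt the log2 fold change was -1.19 ± 0.40 (adjusted p = 0.0496, not past the threshold), and without unstimulated replicate 3 it was -1.50 (adjusted p = 0.000371).

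*Ski* and *Skil*, the 2 corepressors, went opposite ways in CD18Foxp3. *Ski* was at 115.98, 128.1 and 120.6 TPM in CD18wt unstimulated and 134.6, 100.6 and 94.3 in CD18wt stimulated libraries, which overlap. In CD18Foxp3 it was at 112.5, 107.75 and 115.3 TPM against 73.1, 107.2 and 87.8. Its log2 fold change was -0.55 ± 0.15 in CD18wt (adjusted p = 0.00816, fold under 1.5) and -0.69 ± 0.13 in CD18Foxp3 (adjusted p = 0.00169). In limma on log2(TPM + 1) the CD18Foxp3 call of *Ski* did not hold (-0.34, adjusted p = 0.0719), and without CD18Foxp3 unstimulated replicate 1 its adjusted p was 0.0102.

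*Skil*, a classical early target of the pathway, was at 40.1, 37.2 and 31.5 TPM in CD18wt unstimulated and 76.2, 54.4 and 73.7 in CD18wt stimulated libraries. In CD18Foxp3 it went from 32.9, 38.1 and 33.9 TPM to 78.8, 73.4 and 65.4. Stimulated libraries lay above unstimulated ones in both genotypes. The log2 fold change was 0.50 ± 0.13 in CD18wt (adjusted p = 0.00715, fold under 1.5) and 0.69 ± 0.12 in CD18Foxp3 (adjusted p = 0.00115). Without CD18Foxp3 unstimulated replicate 1 the adjusted p was 0.0106. The ratio of *Skil* to *Ski* in TPM, also chosen after seeing the values, was 2.09-fold higher after stimulation in CD18wt (0.299 ± 0.043 to 0.629 ± 0.133) and 2.63-fold higher in CD18Foxp3 (0.313 ± 0.035 to 0.836 ± 0.211), with exact permutation p = 0.1 for each.

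Reads within introns, which in poly(A) libraries come from RNA that is not fully spliced or from other transcripts in the intron, gave a second readout of the same genes. Intron reads were 3.32 to 5.99% of all gene reads in a library, lowest in CD18wt unstimulated replicate 3. In CD18Foxp3 Treg 6 of the 10 genes passed the threshold in intron reads, where 30.4% of 10260 genes did (15.3% higher and 15.1% lower). *Furin* (1.68 ± 0.30, adjusted p = 8.37e-06) and *Tgfbr1* (1.12 ± 0.22, adjusted p = 4.75e-05) rose in introns as they did in exons. *Tgfbr2* (-2.01 ± 0.22), *Smad7* (-2.56 ± 0.26), *Ski* (-1.30 ± 0.29) and *Smad4* (-0.67 ± 0.20) fell, with adjusted p from 3.39e-11 to 0.00465. The *Smad4* call did not hold with the library sizes of the exon reads (-0.31) or without unstimulated replicate 2, stimulated replicate 2 or stimulated replicate 3 (adjusted p of 0.0119 to 0.0472).

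In CD18wt only *Tgfbr2* (-1.74 ± 0.32, adjusted p = 0.00127) and *Smad7* (-2.25 ± 0.41, adjusted p = 0.00136) passed in intron reads, against 7.8% of 9492 genes (2.71% higher and 5.09% lower). *Tgfbr2* had 209, 181 and 59 intron reads in the unstimulated and 60, 49 and 71 in the stimulated CD18wt libraries, and *Smad7* had 149, 247 and 39 against 46, 14 and 61. Unstimulated replicate 3 had only 366391 intron reads in all, against 868291 and 954304 in the other two. Per 100000 intron reads, *Tgfbr2* was at 24.1, 18.97 and 16.1 unstimulated against 8.69, 7.59 and 6.78 stimulated, and *Smad7* at 17.2, 25.9 and 10.6 against 6.66, 2.17 and 5.82, so that the groups were apart for both. Neither call held with the replicate number as a block (adjusted p = 0.01 for *Tgfbr2*, just above the threshold unrounded, and 0.0143 for *Smad7*), with the library sizes of the exon reads (-1.38 and -1.84, adjusted p = 0.0553 and 0.0488) or without stimulated replicate 3 (0.0148 and 0.0145). Without unstimulated replicate 1, *Tgfbr2* had an adjusted p of 0.0101.

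*Tgfb1*, which rose in exon reads, did not pass in intron reads. Its intron reads had a log2 fold change of 0.01 ± 0.30 in CD18wt (adjusted p = 0.984) and 0.24 ± 0.19 in CD18Foxp3 (0.322), beside 0.80 and 0.79 in exon reads. For *Smad2* the intron values were -0.84 ± 0.36 (adjusted p = 0.11) and -0.75 ± 0.26 (0.0171), beside 0.12 and 0.00 in exon reads, and the CD18Foxp3 value passed without unstimulated replicate 2 or stimulated replicate 3 (-0.95 and -0.89). The difference between the readouts was not tested.

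**Figure D4:**
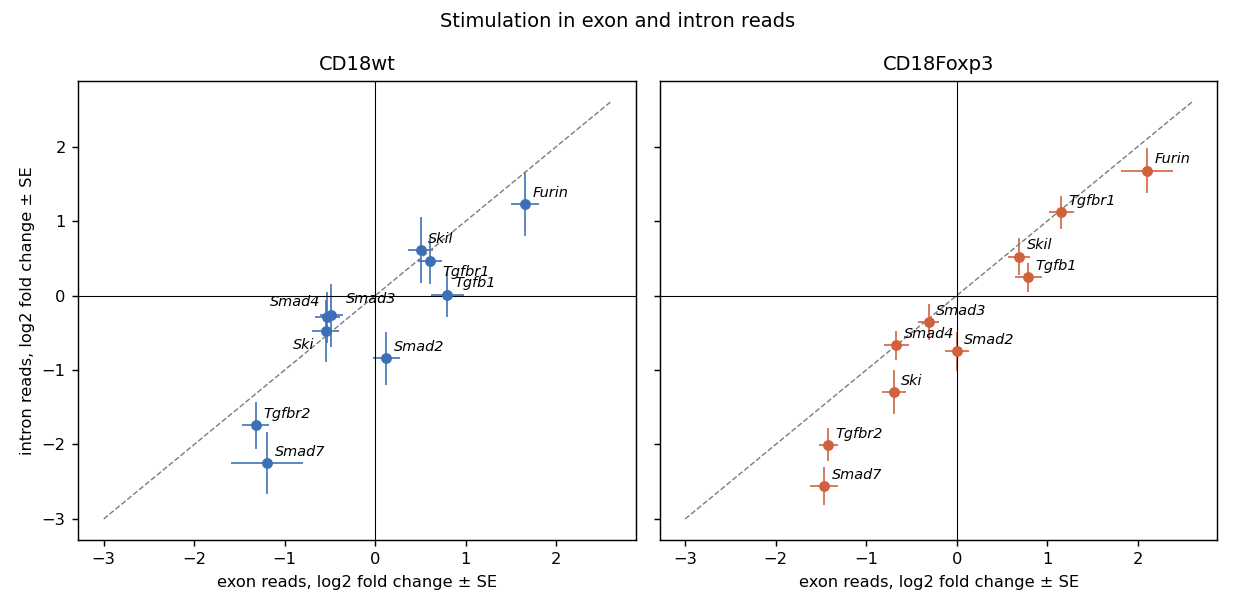
Log2 fold change on stimulation in exon reads (horizontal axis) and in intron reads (vertical axis), each ± SE, for the 10 genes in CD18wt (left) and CD18Foxp3 (right), 3 libraries per group. The dashed line marks equal change. *Furin* lies at the upper right (1.65 and 1.23 in CD18wt, 2.10 and 1.68 in CD18Foxp3), *Smad7* and *Tgfbr2* at the lower left, and *Tgfb1* below the line in both panels.

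The genotypes were compared to see how Treg from CD18Foxp3 mice differ from Treg of their CD18wt littermates. The study reports enlarged spleens, inflamed organs and more activated conventional T cells in affected CD18Foxp3 mice. The condition of the mice used for these libraries is not given. Loss of CD18 in the Treg and the condition of the donor mice therefore cannot be told apart in any genotype difference. Among the 10 pathway genes, none passed the threshold between CD18Foxp3 and CD18wt in unstimulated cells, where 0.135% of 11829 genes did (16 genes, 0.0507% higher and 0.0845% lower), or in stimulated cells, where 0% of 11930 did. In stimulated cells 583 genes had an unadjusted p under 0.05, and DESeq2 called 22 genes and edgeR's likelihood ratio test 16, with none of the 10 genes among them. The intervals bound the size of a difference for each gene. In unstimulated cells the 95% intervals for *Tgfb1* (-0.23 to 0.13), *Furin* (-0.18 to 0.29), *Tgfbr2* (-0.32 to 0.05), *Smad2* (-0.18 to 0.30), *Smad3* (-0.36 to 0.06), *Smad4* (-0.03 to 0.37), *Ski* (-0.32 to 0.03) and *Skil* (-0.29 to 0.14) all lay within a fold of 1.5 on the log2 scale. That of *Smad7* (-0.79 to 1.28) did not, and its CD18wt libraries ranged from 31.3 to 97.4 TPM.

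In stimulated cells the intervals were wider. They ran from -0.53 to 0.41 for *Tgfb1* (-0.06 ± 0.22), from -0.59 to 0.12 for *Tgfbr2* (-0.23 ± 0.17), from -0.48 to 0.44 for *Smad7* (-0.02 ± 0.21) and from -0.69 to 0.11 for *Ski* (-0.29 ± 0.18). The intervals of *Smad2*, *Smad3*, *Smad4* and *Skil* lay between -0.42 and 0.45. *Furin* had the largest estimate, 0.51 ± 0.29 with an interval of -0.13 to 1.15 (adjusted p = 0.998). Its stimulated CD18Foxp3 and CD18wt libraries overlapped, and the estimate was 0.09 to 0.78 when 1 library was left out.

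*Tgfbr1* was the only one of the 10 genes whose libraries were apart between genotypes in both cultures, in opposite directions. In unstimulated cells the CD18Foxp3 libraries (22.1 to 23.1 TPM) all lay below the CD18wt ones (24.6 to 27.5), and in stimulated cells (55.4 to 74.4 against 48.6 to 53.7) all lay above. Non-overlap in TPM was seen for 6.52% of 11642 genes with a mean of at least 1 TPM as lower and 8.59% as higher in unstimulated cells, and for 4.84% as higher in stimulated cells. How many of these genes were apart in both cultures was not counted. Unstimulated libraries were also apart for *Ski*, lower in CD18Foxp3, and for *Smad4*, higher in CD18Foxp3. For *Tgfbr1* the log2 fold change was -0.22 ± 0.10 in unstimulated cells (95% interval -0.43 to -0.01, adjusted p = 0.487). In stimulated cells that of *Tgfbr1* was 0.32 ± 0.16 (-0.03 to 0.68, adjusted p = 0.998). The difference between the responses of the genotypes to stimulation (interaction) was 0.54 ± 0.19 (0.14 to 0.94) for *Tgfbr1*. Its unadjusted p was 0.0113 and its adjusted p 0.987 over 12636 genes. It was 0.41 to 0.65 when any 1 library was dropped and did not pass the threshold in any fit. No gene passed for the interaction (0%), although 485 genes had an unadjusted p under 0.05, DESeq2 called 1 gene and the likelihood ratio test 6. A response past the threshold in 1 genotype, as for *Smad4*, *Smad7*, *Ski* and *Skil* in CD18Foxp3, was therefore not shown to differ from that in the other.

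**Figure D5:**
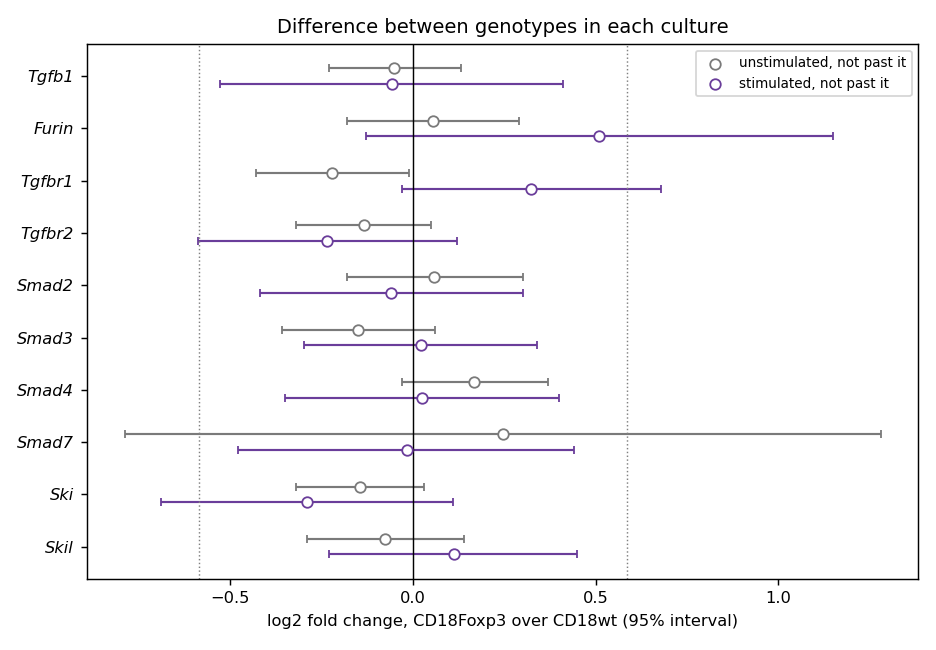
Log2 fold change of CD18Foxp3 over CD18wt from edgeR (horizontal axis) with its 95% interval for each gene (rows), in unstimulated (grey) and stimulated (purple) cells, 3 libraries per group. Open points did not pass the threshold and dotted lines mark a fold change of 1.5. All 20 points are open, and the widest intervals are those of *Smad7* unstimulated (-0.79 to 1.28) and *Furin* stimulated (-0.13 to 1.15).

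The surroundings of these 10 genes were described with 67 further genes of the pathway in 9 lists by role. On stimulation 13 rose and 8 fell of 55 tested in CD18wt, with a median log2 fold change of 0.04 beside 0.02 for all genes, and where 18.7% of all genes rose and 14.9% fell. In CD18Foxp3 16 rose and 12 fell of 51 tested, with a median of 0.03 beside 0.02, and where 20.9% of all genes rose and 17.6% fell. The counts by role that follow stand against these shares.

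On the presentation side, *Lrrc32*, whose product GARP holds latent TGF-β1 on the Treg surface, rose by 1.75 ± 0.19 (log2) in CD18wt (adjusted p = 1.28e-05) and 1.71 ± 0.12 in CD18Foxp3 (5.14e-06). Its TPM values were 31.4 to 56.6 in the CD18wt unstimulated and 161.9 to 238.5 in the CD18wt stimulated libraries. *Itgav*, the αV chain of the integrin αVβ8 that frees the ligand from GARP, rose by 1.48 ± 0.13 and 2.06 ± 0.15 (adjusted p = 1.38e-06 and 7.76e-06). *Itgb8*, the β8 chain of that integrin, passed in CD18Foxp3 (1.16 ± 0.16, adjusted p = 0.000307) and not in CD18wt (0.11 ± 0.14, adjusted p = 0.522). It was at 24.3, 17.3 and 24.1 TPM in stimulated CD18wt and 42.5, 30.1 and 33.95 in stimulated CD18Foxp3 libraries, without overlap. Such non-overlap with CD18Foxp3 higher was seen for 4.84% of 11642 genes in stimulated cells. The genotype difference in stimulated cells was 0.72 ± 0.18 (adjusted p = 0.528) and the interaction 1.03 ± 0.21 (unadjusted p = 0.000171, adjusted p = 0.658), so neither passed.

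Among the other receptors of the family, 3 of 8 tested fell in CD18wt and 0 rose, beside 14.9% and 18.7% of all genes. Those that fell were *Acvrl1*, the type I receptor ALK1 (-2.12 ± 0.43, at most 103 exon reads in a CD18wt library), the coreceptor betaglycan *Tgfbr3* (-1.43 ± 0.23) and the activin receptor *Acvr1b* (-0.66 ± 0.18). The CD18wt call of *Acvr1b* held only when unstimulated replicate 3 was the library left out of the 6 (adjusted p otherwise 0.0173 to 0.0394), and that of *Acvrl1* was lost without unstimulated replicate 2 (0.0135). The same 3 fell as well in CD18Foxp3, at -2.14, -1.85 and -1.03. There 4 of 8 fell and 2 rose (*Acvr1* and *Bmpr1a*, 1.80 ± 0.34 and 1.28 ± 0.29), beside 17.6% and 20.9% of all genes. The call of *Bmpr1a* was lost without any 1 unstimulated library or stimulated replicate 3 (adjusted p from 0.013 to 0.0234), and that of *Acvr1b* without unstimulated replicate 1 (0.0106). Of 9 ubiquitin ligases and deubiquitinases of the pathway, 1 rose and 3 fell in each genotype. Of all genes, 33.6% passed in CD18wt and 38.6% in CD18Foxp3. The ligases *Smurf2* (-1.15 and -0.96 in CD18wt and CD18Foxp3), which SMAD7 brings to the receptors, and *Nedd4l* (-1.02 and -0.86) fell, the *Nedd4l* calls being lost without CD18wt unstimulated replicate 1 or 3 or stimulated replicate 1 or 2, and without CD18Foxp3 unstimulated replicate 1 or 2 or stimulated replicate 3 (adjusted p from 0.0136 to 0.0285), and so did the deubiquitinase *Usp11* (-1.68 and -1.40). *Usp15*, which opposes SMURF2 at the type I receptor, rose (0.67 and 0.87).

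Of 12 SMAD cofactors and adaptors tested, 5 rose and 1 fell in CD18wt, beside 18.7% and 14.9% of all genes. In CD18Foxp3 6 rose and 1 fell, beside 20.9% and 17.6%. The SMAD-binding repressor *Zeb2* rose by 2.59 ± 0.53 and 2.67 ± 0.42 from at most 40 exon reads in an unstimulated library. *Fkbp1a*, which binds and quiets TGFBR1, rose by 1.16 and 0.87, the corepressor *Tgif2* by 1.08 and 0.81 (0.82 and 0.76 in uniquely placed reads, not passing), and the feedback inhibitor *Pmepa1* by 1.02 and 1.27. The kinases of the SMAD-independent arm, *Map3k7* (TAK1, 0.71 and 0.74) and the ligase *Traf6* (1.04 and 0.99), rose, as 2 of 5 members of their list.

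Genes known to respond to TGF-β did not move as 1 group. In CD18wt 4 of 11 tested rose and 2 fell, beside 18.7% and 14.9% of all genes. In CD18Foxp3 3 of 9 rose and 2 fell, beside 20.9% and 17.6%. The cell cycle inhibitor *Cdkn1a*, which many signals other than TGF-β induce, had the largest rise (5.76 ± 0.25 and 5.60 ± 0.22), and the chemokine receptor *Ccr8* rose by 1.46 and 2.14. *Itgae*, the αE chain CD103, fell in CD18wt (-1.74 ± 0.32, adjusted p = 0.0016) and was at -0.86 ± 0.47 in CD18Foxp3 (adjusted p = 0.155). Without CD18wt stimulated replicate 2 the first call was lost (-1.69, adjusted p = 0.014), and without CD18Foxp3 stimulated replicate 3 the second value passed (-1.69, adjusted p = 0.000986).

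Between genotypes, 1 of the 67 genes passed the threshold in unstimulated cells and 0 in stimulated cells. *Gpr15*, a homing receptor that TGF-β signalling induces in T cells, was at 22.5, 20.8 and 12.3 TPM in CD18wt and 57.2, 63.6 and 86.5 in CD18Foxp3 unstimulated libraries. The log2 fold change was 1.86 ± 0.20 (adjusted p = 0.0043). Like that of *Itgb2*, this call held without CD18wt unstimulated replicate 3 and was lost without any other 1 of the 6 libraries (1.69 to 2.00, adjusted p from 0.0163 to 0.0463). In stimulated cells the groups were also apart, at 46.7, 30.3 and 18.8 against 116.1, 89.6 and 175.7 TPM (2.01 ± 0.34, adjusted p = 0.216). *Itgae* was higher in every CD18Foxp3 library than in every CD18wt library of the same culture, from 46.0 to 85.3 against 21.7 to 28.6 TPM unstimulated and 21.8 to 81.7 against 5.67 to 15.6 stimulated, without passing (1.30 ± 0.22, adjusted p = 0.0617, and 2.19 ± 0.62, adjusted p = 0.813). Of 11642 genes with a mean of at least 1 TPM, 8.59% had all CD18Foxp3 libraries above all CD18wt ones in unstimulated cells. In stimulated cells 4.84% did. The values of *Tgfb1*, the receptors and the SMADs in the same libraries are those given above.

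The genes whose levels ran most like those of *Furin*, *Tgfbr2* and *Smad3*, chosen for the largest rise and range, the largest fall in CD18wt and the smallest range in TPM, were found by Pearson's r of log2(TPM + 1) over the 12 libraries among 9228 genes with a mean of at least 5 TPM. For *Furin* they were *Nde1* (r = 0.993), *Dnajc9* (0.992) and *Tubgcp2* (0.988), and for *Tgfbr2* they were *Klf2* (0.990), *Il16* (0.989) and AB124611 (0.988). The 12 libraries fall into a stimulated and an unstimulated set, and these values describe that shared step. For *Smad3*, which had no such step in TPM, the highest values were lower, with *Wdr44* at 0.797, Gm26510 at 0.783 and *Ppp1r16b* at 0.782.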

How the data were processed

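RNA-seq tables of 12 libraries were used (single 59-base reads, poly(A)-selected RNA from 10 ng of total RNA, 15 PCR cycles). The authors trimmed the reads, aligned them to GRCm38 in CLC Genomics Workbench and deposited, per gene, the counts of exon and intron reads and TPM, a value scaled to transcript length and library size. RPKM columns were not used. Reads of the 10 genes were at least 99.1% uniquely placed.

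Exon read counts were fitted with the quasi-likelihood F-test of edgeR 4.0.16 in R 4.3.3 (filterByExpr, minimum count 10, TMM, robust), with Benjamini-Hochberg adjusted p over all genes tested. Following the methods of the study, a gene was called at 1.5-fold or more with an adjusted p no higher than 0.01. The 10 genes passed the count filter in every comparison. Comparisons used the 6 libraries concerned, and the interaction all 12. Intron counts were fitted separately in the same way. Levels are TPM as deposited (mean ± SD, n = 3). Single values were compared by 2-sided exact permutation tests (Python 3.11.15). The p-values measure the spread between libraries labelled as biological replicates. The fits were also run on simulated counts with 200 genes changed by more than 1.5-fold, whose outcome is not reported here. That run is no check of calls near the 1.5-fold limit. Alternatives were DESeq2 1.42.0, the likelihood ratio test, limma 3.58.1 on log2 TPM with a pseudocount of 1 or 0.1, other scaling and filters, uniquely placed reads, a replicate block and leaving out each library.

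The 10 genes, the pathway and marker lists, the tests and the motifs were chosen with earlier results of these data known. Named besides the 10 were *Itgb2*, listed genes past the threshold between genotypes, up to 4 per list past it in both stimulation comparisons with the largest change in CD18wt, and *Lrrc32*, *Itgav*, *Itgb8*, *Itgae*, *Gpr15* and *Pmepa1*. *Acvr1*, *Bmpr1a*, *Tgif1* and *Id3* were named after their values were seen. *Hgs* was not analysed here, and some listed genes that met this rule are not reported here by name. Promoters came from RefSeq (GRCm38.p6), in which 6 of the 10 genes were used. Depth limits precision to counting error and more, and no duplicates were marked by molecular identifiers.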

Additional observations from a re-analysis of the deposited data

How the results depend on the processing

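None of the 10 genes passed the threshold between genotypes or for the interaction in any alternative. The count for stimulation in CD18wt (4) was 9 at an adjusted p of at most 0.05 with no minimum fold and 2 to 5 with 1 library left out, 2 without CD18wt unstimulated replicate 2 or stimulated replicate 2. In CD18Foxp3 (8) it was 5 to 8, and 5 without unstimulated replicate 1. In intron reads the CD18wt count (2) was 0 with the replicate block, 0 with exon library sizes and 0 to 2 with 1 library left out, 1 without unstimulated replicate 1 and 0 without stimulated replicate 3. The CD18Foxp3 intron count (6) was 5 to 6. The cause of these shifts was not tested.

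Directions turned for the following values, none of which had passed the threshold. *Smad2* on stimulation in CD18Foxp3 was -0.01 in DESeq2, -0.063 with upper-quartile scaling, -0.0067 with at least 10 counts in every library, -0.01 with the replicate block, -0.0013 with all 12 libraries in 1 fit and -0.16 to 0.079 with 1 library left out. *Smad3* in CD18Foxp3 was 0.049 and 0.05 in limma with a pseudocount of 1 and 0.1. *Smad7* between stimulated genotypes was 0.0046 with upper-quartile scaling. The *Tgfb1* interaction was 0.0035 in DESeq2, 0.0034 with upper-quartile scaling and 0.0011 with the block. With exon library sizes, intron values in CD18wt were 0.21 for *Smad3* and 0.044 for *Smad4*. Leaving out 1 library gave, between unstimulated genotypes, -0.013 to 0.19 for *Smad2*, -0.061 to 0.63 for *Smad7* and -0.028 to 0.15 for *Furin*. Between stimulated genotypes it gave -0.26 to 0.11 for *Tgfb1*, -0.17 to 0.22 for *Smad7*, -0.21 to 0.022 for *Smad2*, -0.055 to 0.07 for *Smad3* and -0.079 to 0.16 for *Smad4*. For the interaction it gave -0.21 to 0.18 for *Tgfb1*, -0.66 to 0.034 for *Smad7* and -0.22 to 0.036 for *Tgfbr2*, and for *Tgfb1* intron reads -0.15 to 0.20 in CD18wt and -0.012 to 0.39 in CD18Foxp3.

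Replicate numbers were not taken to pair libraries, since the study states no pairing. It describes the stimulation as done in parallel assays, and whether the same mice gave both cultures is not stated. Deviations of same-numbered unstimulated and stimulated libraries correlated at 0.096, -0.019 and -0.095 in CD18wt and 0.135, 0.070 and 0.147 in CD18Foxp3. Different-numbered ones correlated at -0.117 to 0.110 in CD18wt and at -0.124 to -0.021 in CD18Foxp3, below all same-numbered ones there. A pairing in CD18Foxp3 is therefore not excluded. With the replicate block the exon counts of the 10 genes were again 4 and 8, and 0 between genotypes. Over all genes the block gave 3588 against 4013 stimulation calls in CD18wt and 4899 against 4636 in CD18Foxp3.

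The alternatives on the 67 further pathway genes were added after seeing the data. Their count between unstimulated genotypes (1, *Gpr15*) was 2 in DESeq2, 2 in the likelihood ratio test and 2 with no filter (*Gpr15* and *Itgae*), 0 in limma with either pseudocount, 0 with the block, 0 with all 12 libraries in 1 fit and 0 to 2 with 1 library left out, the 2 being *Gpr15* and *Tgif1* without CD18wt unstimulated replicate 3. Between stimulated genotypes (0) it was 2 in DESeq2, 2 in the likelihood ratio test and 2 with no filter (*Gpr15* and *Ccr8*), and for the interaction (0) 2 with no filter (*Itgb8* and *Id3*). With the block, *Acvr1b* lost its CD18wt call (adjusted p = 0.018) and *Itgae* gained one in CD18Foxp3 (0.00154). In limma *Acvr1b* and *Nedd4l* lost their stimulation calls in both genotypes and *Smurf2* in CD18Foxp3. In CD18wt *Tgfbr3* lost its call in limma with a pseudocount of 0.1 (adjusted p = 0.0111) and *Itgae* with all 12 libraries in 1 fit (0.026). *Zeb2* had no value with at least 10 counts required in every library.

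Over all genes, the unstimulated genotype count (16) was 86 in DESeq2, 86 in the likelihood ratio test, 134 with no filter, 41 with the block, 33 and 42 at an adjusted p of at most 0.05 with and without the minimum fold, 1 and 2 in limma, 0 with all 12 libraries in 1 fit and 0 to 44 with 1 library left out. In stimulated cells (0) it was 61 and for the interaction (0) 31 with no filter. For the CD18wt intron reads (740) it was 188 with the block, 195 with exon library sizes and 159 to 1063 with 1 library left out. In limma on TPM 3510 genes rose and 831 fell on stimulation in CD18wt, against 2234 and 1779.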
